A study of Mus musculus with 9 samples.

Results

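The metallothionein genes Mt1 and Mt2 and the zinc and manganese transporter genes Slc39a14, Slc39a4, Slc39a8, Slc30a1 and Slc30a10 were chosen by name, as 7 of the 24341 genes in a table of liver RNA levels. Bulk liver RNA was sequenced from the 3′ end of the transcripts in 9 wild-type C57BL/6 mice, 48 hours after treatment. In 3 mice (numbered 2, 5 and 9 in the labels) the treatment was FGK45, an agonist antibody that activates CD40, a receptor on B cells, macrophages and dendritic cells. The 6 control mice (numbers 3, 4, 7, 8, 11 and 12) are labelled PBS. The study asked how systemic CD40 activation changes the liver, and its methods state that antibody-treated mice without a fall of blood B cells were excluded from analysis. The labels give no age or sex for these mice.

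Metallothioneins are small cysteine-rich proteins of the cytosol that bind zinc and copper, and their genes are known to be induced by zinc, glucocorticoids and inflammatory cytokines. Zinc enters the cytosol through the SLC39 family, also called ZIP proteins, and leaves it through most members of the SLC30 family, also called ZnT proteins. In the liver, metallothioneins and ZIP14, the product of Slc39a14, are known components of the acute phase response, during which zinc moves from plasma into hepatocytes. The zinc-sensing transcription factor MTF1 binds metal response elements, short DNA sites found near the start of metallothionein genes and of Slc30a1.

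The letters of the metal response element core, TGCACNC or TGCGCNC on either strand, were searched near the starts of the genes. They are the known DNA feature that ties metallothionein genes and Slc30a1 to zinc, and the other genes were searched beside them. RefSeq start-site windows of 300 bases (GRCm38.p6) were at hand for 5 of the 7 genes, but not for Slc39a14 and Slc39a4, which were not searched. The core matched 3 times in the Mt1 window, 4 times in that of Mt2, 2 times in that of Slc30a1 and 3 times in that of Slc30a10, where 2 of the matches overlap on opposite strands. Slc39a8 has 2 windows, with 0 and 1 matches. Of all 32851 windows, 25.7% held at least 1 match, 7.11% at least 2 and 0.517% at least 4, and the share with at least 3 was not counted. Windows were also at hand for 20 other zinc genes of a list given below. Of these, 10 held at least 1 match, with at most 3 in a window, so the core is not particular to the genes chosen here. In Mt1 and Mt2 the RefSeq start lies upstream of a TATAAA sequence, so the first exon before the start codon was also searched, in the GENCODE M21 annotation of GRCm38. It held 4 matches in the 229 bases of Mt1 and 3 in the 184 bases of Mt2. Of the Mt1 matches, 2 are the same sites as in its RefSeq window, so that both searches gave 5 distinct sites in Mt1 and 7 in Mt2. As many matches were found in the same length at the start of 0.179% of 21193 protein-coding transcripts for Mt1 and of 0.627% of 21217 for Mt2. Those stretches begin at the annotated start of each transcript and can hold coding bases. The Mt1 and Mt2 matches lie before TATAAA, so these shares set unlike stretches side by side. The matches nearest to TATAAA in each metallothionein gene, and those of both exporters except the overlapping opposite-strand match in Slc30a10, are shown here 5′ to 3′ on the strand of the gene, with the core in capitals and 10 bases on each side.
Mt1, chr8:94179177-94179203: gcaaacccttTGCGCCCggactcgtcc
Mt1, chr8:94179163-94179189: accgcctgctGGGTGCAaaccctttgc
Mt1, chr8:94179099-94179125: gcccgaaaagTGCGCTCggctctgcca
Mt2, chr8:94172719-94172745: gcggagctttTGCGCTCgacccaatac
Mt2, chr8:94172685-94172711: cggcgggggcGCGTGCAtggtgccttc
Mt2, chr8:94172666-94172692: gaaaaagggcGTGTGCAggcggcgggg
Slc30a1, chr1:191906801-191906827: cctccgggccGAGCGCAgtcgccgcgg
Slc30a1, chr1:191906728-191906754: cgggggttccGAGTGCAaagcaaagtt
Slc30a10, chr1:185454765-185454791: gacatcccaaTGCGCCCctcctcccag
Slc30a10, chr1:185454606-185454632: taggcagcggTGCGCACacccactaca
A core that begins with G in these lines lies on the opposite strand. The match nearest to TATAAA begins 23 bases before it in Mt1 and 24 bases before it in Mt2. Each of these is a match of letters and was not tested for binding. The letters TTCNNNGAA, the form bound by STAT factors, were in none of the windows of the 5 genes searched and in 8.3% of all windows. At that share, so few windows often hold no match, and Slc39a14 and Slc39a4 were not searched.

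Of the 7 genes, 4 were higher after anti-CD40, 1 was lower and 2 did not pass the test (limma, Benjamini-Hochberg adjusted p under 0.05). Mt1, Mt2, Slc39a14 and Slc30a1 rose and Slc30a10 fell, while the intervals for Slc39a4 and Slc39a8 included 0. The background is high in this comparison, since 45.1% of the 13807 genes tested passed, 23.5% as higher and 21.7% as lower. In 5 of the 7 genes the groups did not overlap, against 42.4% of all genes tested. The positions of Slc39a8, Slc30a1 and Slc30a10 are shared in the table with 4933401H06Rik, 1700034H15Rik and Gm2061, which reached at most 0.215, 0.0325 and 0.512 FPKM. A position given below for such a gene is that of the shared locus and can be wider than the gene. That of Slc30a1 begins at 191894072 and its RefSeq window at 191906531, and for Slc30a10 these are 185447116 and 185454598. All 7 genes passed the filter of a mean FPKM of at least 0.1. Levels are given as deposited FPKM (fragments per kilobase of transcript), and differences as log2(FPKM + 0.1) in anti-CD40 mice minus control mice. The median ratio of a mouse's values to the geometric mean of each gene ran only from 1.0038 to 1.0097. The deposited values thus already stood close to a common median-ratio scale. With 3 mice against 6, the smallest p the exact permutation test allows is 0.0238, over 84 splits.

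**Figure D1:**
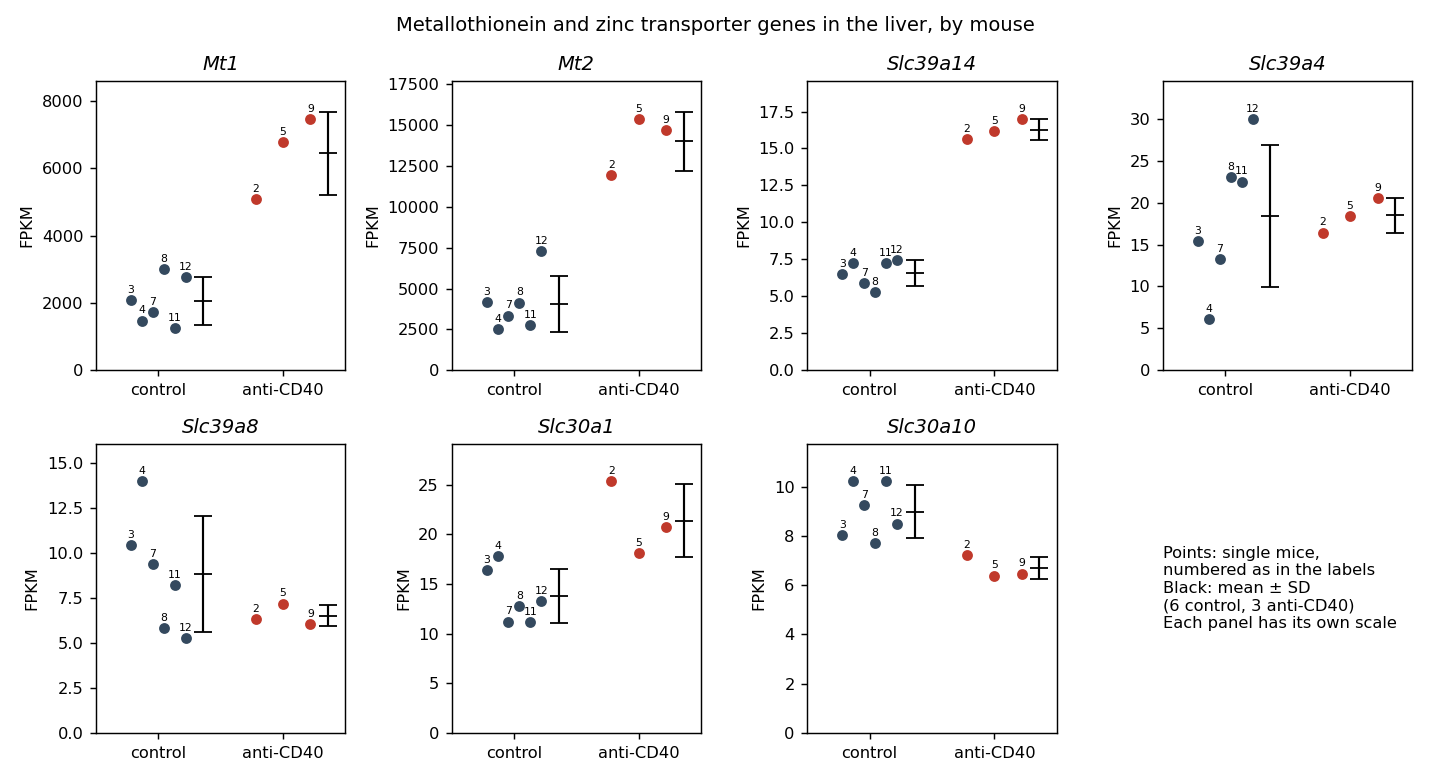
FPKM (linear axis from 0, a separate scale in each panel) of the 7 genes in each of the 6 control and 3 anti-CD40 mice, with the label number of each mouse beside its point and the mean ± SD in black. The 3 anti-CD40 mice lie above all control mice for Mt1, Mt2, Slc39a14 and Slc30a1, below all of them for Slc30a10, and among them for Slc39a4 and Slc39a8.

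Mt1 (chr8:94179089-94180327 in mm10, as for all positions of genes) encodes metallothionein 1, which with metallothionein 2 is the form made in most tissues. The 3 antibody-treated mice (2, 5 and 9) had an FPKM of 5075, 6770 and 7468. Control values ran from 1260 through a median of 1904 to 3006. The lowest anti-CD40 mouse was therefore above the highest control mouse. The means were 6438 ± 1230 (SD, n = 3) and 2053 ± 706 (SD, n = 6), a log2 difference of 1.70 (SE 0.28, 95% interval 1.08 to 2.32) or 3.25-fold. The limma adjusted p was 6.78e-04 and the 2-sided exact permutation p was 0.0238. A larger log2 difference was seen in 7.42% of the genes tested.

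Mt2 (chr8:94172618-94173567) encodes metallothionein 2 and lies 5521 bp upstream of Mt1 on the same strand. In mice 2, 5 and 9, which received the antibody, 11970, 15399 and 14694 FPKM were measured, and the control mice ran from 2530 through a median of 3747 to 7293. The groups did not overlap, although control mouse 12 stood well above the other control mice, the next of which was at 4189. The means were 14021 ± 1811 (SD, n = 3) and 4043 ± 1734 (SD, n = 6), a log2 difference of 1.88 (SE 0.30, 95% interval 1.22 to 2.54) or 3.68-fold. The limma adjusted p was 5.22e-04 and the exact permutation p was 0.0238. The Mt1 and Mt2 transcripts share runs of up to 17 bases within their last 300 bases and up to 20 bases over their whole length.

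The ratio of Mt2 to Mt1 shows whether the pair moved by the same amount. On the log2 scale the ratio after anti-CD40 was 1.24, 1.19 and 0.98 (mice 2, 5 and 9), inside control values of 0.46 to 1.4. The groups overlapped, and their difference of 0.18 gave an exact permutation p of 0.381, also 0.381 after adjustment over the 3 ratios tested. Transcript length cancels in the comparison of such a ratio between groups.

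Slc39a14 (chr14:70303467-70351424) encodes ZIP14, which carries zinc, manganese and non-transferrin iron into hepatocytes. FPKM after the antibody was 15.6, 16.2 and 17.0 (mice 2, 5 and 9). Control values ran from 5.26 through a median of 6.86 to 7.47. Both groups were tight and far apart, with no value of either between 7.47 and 15.6. The means were 16.3 ± 0.699 (SD, n = 3) and 6.61 ± 0.880 (SD, n = 6), a log2 difference of 1.30 (SE 0.13, 95% interval 1.0 to 1.59) or 2.46-fold. Its limma adjusted p of 2.89e-05 was the lowest of the 7 genes, with an exact permutation p of 0.0238.

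Slc39a4 (chr15:76612383-76616852) encodes ZIP4, best known as the importer for dietary zinc in the intestine. The treated mice 2, 5 and 9 stood at 16.4, 18.4 and 20.6 FPKM, inside a control range from 6.11 through a median of 19.0 to 30.02. The control mice spread more widely than the anti-CD40 mice, with control mouse 4 the lowest. The means were 18.5 ± 2.08 (SD, n = 3) and 18.4 ± 8.49 (SD, n = 6). The log2 difference of 0.16 (SE 0.41) had a 95% interval from -0.75 to 1.08, with a limma adjusted p of 0.772 and an exact permutation p of 0.881. Without control mouse 4 the difference was -0.12.

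Slc39a8 (chr3:135825279-135888572) encodes ZIP8, the closest relative of ZIP14, which carries the same metals. The 3 antibody-treated mice (2, 5 and 9) had an FPKM of 6.31, 7.20 and 6.07, and the control mice ran from 5.29 through a median of 8.79 to 13.99. The groups overlapped, with 2 control mice below all anti-CD40 mice. The means were 6.53 ± 0.591 (SD, n = 3) and 8.85 ± 3.21 (SD, n = 6). The log2 difference of -0.36 (SE 0.28) had a 95% interval from -0.97 to 0.25, with a limma adjusted p of 0.316 and an exact permutation p of 0.310.

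ZIP14 and ZIP8 carry the same metals, so their genes were also set against each other within each mouse. The log2 ratio of Slc39a14 to Slc39a8 was 1.29, 1.16 and 1.47 after anti-CD40 (mice 2, 5 and 9). It lay between -0.94 and 0.49 in the control mice, and the groups did not overlap. The groups differed by 1.66 (exact permutation p = 0.0238, adjusted over 3 ratios 0.0357). Slc39a14 alone differed by 1.30 without overlap, so this ratio is not separate evidence of a change in Slc39a8.

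Slc30a1 (chr1:191894072-191913247) encodes ZnT1, the zinc exporter of the plasma membrane. In mice 2, 5 and 9, which received the antibody, 25.3, 18.1 and 20.7 FPKM were measured, and the control mice ran from 11.2 through a median of 13.1 to 17.8. The groups did not overlap, but anti-CD40 mouse 5 was close to the highest control mouse. The means were 21.4 ± 3.67 (SD, n = 3) and 13.8 ± 2.73 (SD, n = 6), a log2 difference of 0.64 (SE 0.18, 95% interval 0.24 to 1.03) or 1.56-fold. The limma adjusted p was 0.0138 and the exact permutation test gave 0.0238. Without anti-CD40 mouse 2 the difference was 0.51, with a limma adjusted p of 0.0788, so the call was lost. In that fit the calls over all genes also fell, from 3240 to 2482 higher and from 2990 to 2332 lower. A larger log2 difference was seen in 21.7% of the genes tested.

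Slc30a10 (chr1:185447116-185468761) belongs to the zinc exporter family by sequence, but its protein is known as an exporter of manganese, at the surface of hepatocytes facing the bile. FPKM after the antibody was 7.23, 6.39 and 6.47 (mice 2, 5 and 9), and the control mice ran from 7.71 through a median of 8.88 to 10.2. The groups did not overlap. The means were 6.70 ± 0.462 (SD, n = 3) and 8.99 ± 1.08 (SD, n = 6), a log2 difference of -0.41 (SE 0.13, 95% interval -0.69 to -0.13) or 0.751-fold. The limma adjusted p was 0.0214, with 0.0238 by exact permutation.

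The call for Slc30a10 was lost in 4 of 20 alternatives. Without anti-CD40 mouse 5 or mouse 9 the log2 difference was -0.38 or -0.39, with limma adjusted p of 0.0808 and 0.0783. Serum amyloid A genes Saa1, Saa2 and Saa3 held 25.4% to 25.9% of the summed FPKM after anti-CD40, against 0.0449% to 0.380% without it. The median ratio was already nearly equal between mice in the deposited values. Scaling each mouse by it therefore changed little, with the median log2 difference of all genes at 0.0085 and Slc30a10 at -0.41 (limma adjusted p = 0.0222). Leaving the Saa genes out and rescaling each mouse to the same total instead moved that median from 0.0056 to 0.35. This rescaling thus shifted the genes as a whole upward. On that scale Slc30a10 was at -0.052 (limma adjusted p = 0.778) and Slc39a8 at 0.0019 (limma adjusted p = 0.997), so the direction of Slc39a8 turned, whereas Mt1, Mt2, Slc39a14 and Slc30a1 kept their calls.

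The ratio of the manganese importer Slc39a14 to the manganese exporter Slc30a10 does not depend on such a scaling beyond the pseudocount. Its log2 value after anti-CD40 was 1.1, 1.33 and 1.38 (mice 2, 5 and 9), and control values lay between -0.64 and -0.18. The groups did not overlap. The groups differed by 1.71 (exact permutation p = 0.0238, adjusted over 3 ratios 0.0357). Slc39a14 alone differed by 1.30 without overlap, so this ratio is not separate evidence of a change in Slc30a10.

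**Figure D2:**
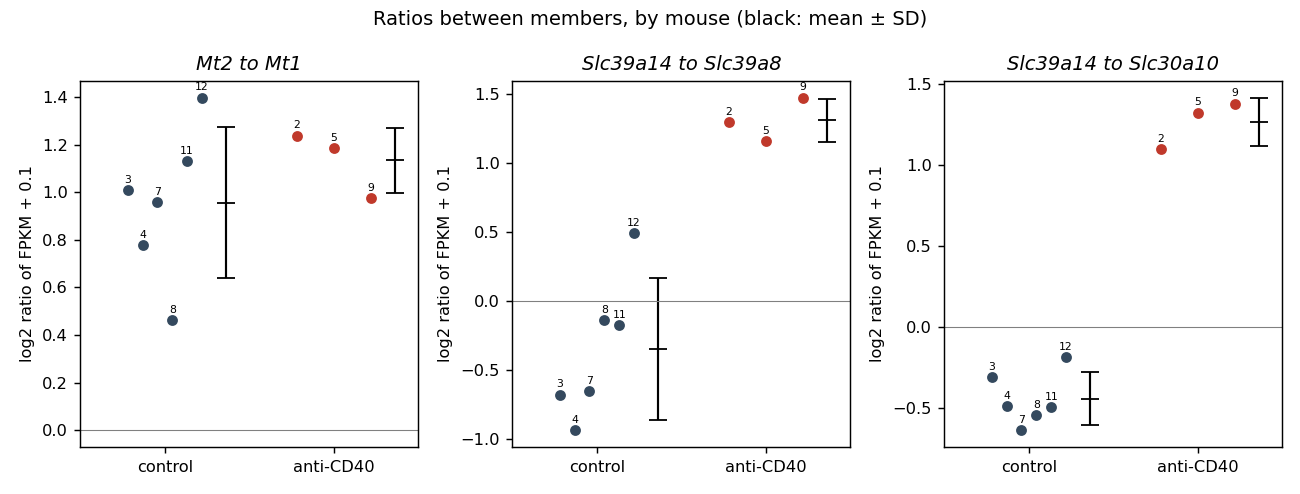
log2 ratios of FPKM + 0.1 for the 3 gene pairs (Mt2 to Mt1, Slc39a14 to Slc39a8, Slc39a14 to Slc30a10) in each mouse, one point a mouse, with the control mice beside the anti-CD40 mice. The groups overlap for Mt2 to Mt1 and are apart for both ratios that hold Slc39a14.

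**Figure D3:**
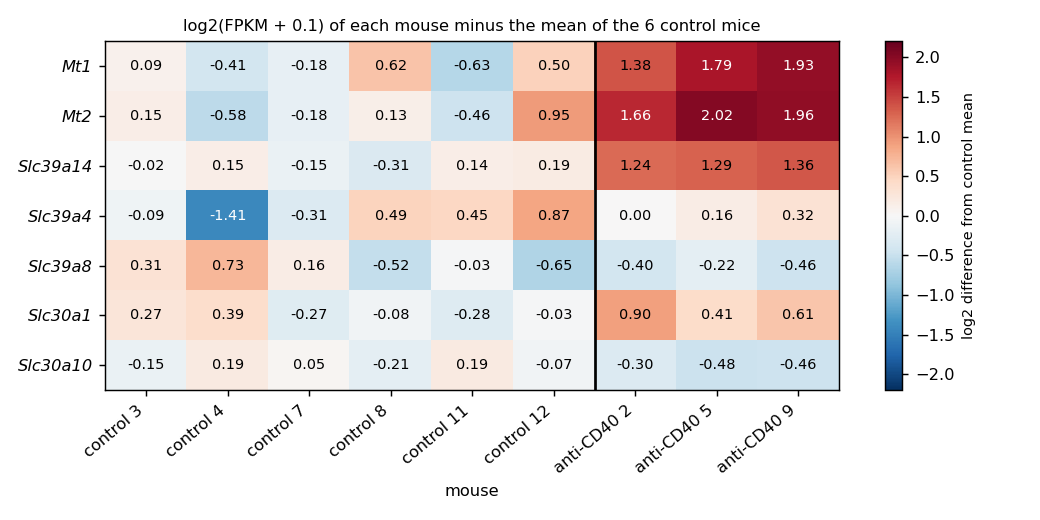
Difference of log2(FPKM + 0.1) in each mouse from the mean of the 6 control mice, for the 7 genes (one line of cells a gene, one column a mouse, red higher, blue lower). Mt1 and Mt2 lie between 1.38 and 2.02 in the anti-CD40 mice, and Slc39a4 in control mouse 4 is the lowest cell, at -1.41.

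The control mice also differed among themselves. Over the 6 control mice, 21 pairs of these genes were correlated on log2(FPKM + 0.1), and none passed Benjamini-Hochberg adjustment. Slc39a4 and Slc39a8 ran in opposite directions, with Pearson's r = -0.92 (exact permutation p = 0.00556, adjusted 0.117) and Spearman's rho = -0.94 (exact permutation p = 0.0167, adjusted 0.175). Without mice 4 and 12, the farthest from the median of Slc39a4, r was -0.78. Mt1 and Mt2 had r = 0.82 (exact permutation p = 0.0389, adjusted 0.272) and rho = 0.77 (exact permutation p = 0.103). Mt1 and Slc30a10 ran in opposite directions, with r = -0.91 (exact permutation p = 0.0208, adjusted 0.219) and rho = -0.94 (exact permutation p = 0.0167, adjusted 0.175). Without mice 8 and 11, the farthest from the median of Mt1, r was 0.996 with Mt2 and -0.78 with Slc30a10. The mice left include control mouse 12, the highest for Mt2, and are too few for these values to be more than a description.

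Several features of the tissue moved with the treatment, and their part in these results was not tested. Of 8 hepatocyte markers, 6 were lower and 1 (Apob) was higher after anti-CD40, with a summed FPKM of 4573 to 5515 against 12941 to 24060. All 7 neutrophil markers tested were higher (4209 to 5194 against 18.9 to 153), as were 6 of 8 monocyte and macrophage markers (316 to 433 against 45.8 to 79.9). Another marker of that list, Adgre1, was lower, at -1.49 on the log2 scale. All 6 Kupffer cell markers were lower (37.3 to 48.1 against 273 to 435). All 4 B cell markers tested were higher (24.3 to 34.6 against 1.58 to 6.53), as were 5 of 6 T and NK cell markers (12.4 to 15.9 against 2.57 to 4.90). Of 5 cholangiocyte markers tested, 2 were higher and 3 did not pass, where 23.5% of all genes tested were higher. Their summed FPKM was 68.6 to 98.5 against 8.88 to 17.6, most of it after anti-CD40 from Sox9 (mean 54.2 against 4.72). Of 6 endothelial and of 6 stellate cell markers, 2 were higher and 2 lower in each list. Each of the 7 genes is measured in whole tissue, where fewer cells of a type and less RNA per cell cannot be told apart. Haemoglobin and other erythroid markers summed to 50531 in control mouse 4 and to at most 14320 in any other mouse. Pancreatic acinar markers summed to 1058 in anti-CD40 mouse 5, against 27.9 and 33.3 in the remaining treated animals, while the controls held 70.5 to 190. Outside mouse 5, most of each sum was Cela1 (27.0 and 29.3 in mice 2 and 9, 69.3 to 188 in controls). In mouse 5 Cela1 was at 315. No other acinar marker exceeded 1.60 FPKM in any mouse but mouse 5, where those above the floor held 6.83 to 223. Without control mouse 4 and anti-CD40 mouse 5, Slc30a10 was at -0.34 (limma adjusted p = 0.0970), while Mt1, Mt2, Slc39a14 and Slc30a1 kept their calls.

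The other genes of zinc handling were taken as a list of 22, from general knowledge. Of the 18 tested, 6 were higher and 2 lower after anti-CD40, and 10 did not pass, with a median log2 difference of -0.027 beside 0.0056 over all genes tested. Among the 10 was Mtf1, which encodes the zinc-sensing factor itself, with a log2 difference of -0.0017 and a limma adjusted p of 0.995. Over all genes tested, 23.5% were higher and 21.7% lower.

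Among the importers, Slc39a6, which encodes ZIP6 of the plasma membrane, rose most firmly. The treated mice 2, 5 and 9 stood at 3.87, 2.96 and 2.50 FPKM against 0.924 to 1.45 in the control mice, a log2 difference of 1.37 (SE 0.18, limma adjusted p = 1.70e-04). Slc39a10 (ZIP10, its near relative) was at 0.79 (limma adjusted p = 0.0250), with overlapping groups. Slc39a1, which encodes the widespread importer ZIP1, had means of 96.9 ± 6.10 (SD, n = 3) and 70.4 ± 3.86 (SD, n = 6), a log2 difference of 0.46 (limma adjusted p = 0.00242). Slc39a13 (ZIP13, an intracellular transporter) was at 0.58 (limma adjusted p = 0.0282). The importers that fell were Slc39a5 (ZIP5), from 1.16 to 0.340 mean FPKM with overlapping groups and a log2 difference of -1.40 (limma adjusted p = 0.0137), and Slc39a9 (ZIP9), from 12.8 to 8.46 with a difference of -0.58 (limma adjusted p = 0.0152). On the scale without the Saa genes Slc39a9 was at -0.22 with a limma adjusted p of 0.255.

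Slc30a5, whose product ZnT5 brings zinc into the secretory pathway, was the single exporter-family gene of this list to pass, at 0.59 (SE 0.14, limma adjusted p = 0.00634). The 3 antibody-treated mice (2, 5 and 9) had an FPKM of 6.59, 6.25 and 5.88 against 3.39 to 4.77 in the control mice. The calls for Slc39a1, Slc39a6 and Slc30a5 held in all 20 alternatives. Those for Slc39a13, Slc39a10, Slc39a5 and Slc39a9 were lost in 7 of 20, 4 of 19, 3 of 19 and 3 of 20.

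Mt4, the metallothionein of stratified epithelia, lies in the same cluster as Mt1, Mt2 and Mt3, over 43124 bp of chromosome 8. In mice 2, 5 and 9, which received the antibody, 1.23, 1.83 and 2.80 FPKM were measured and from 0.01 to 1.05 in the control mice, where 0.01 is the floor of the table. The limma log2 difference was 1.90 (SE 0.64, adjusted p = 0.0338), which ran from 0.93 to 2.41 over 20 alternatives, and the call was lost in 8. The smallest whole numbers of reads that fit its values sum to 22 over the 3 anti-CD40 mice and 12 over the 6 control mice. Mt3, Slc39a12, Slc30a2 and Slc30a8 were below the filter and were not tested.

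**Figure D4:**
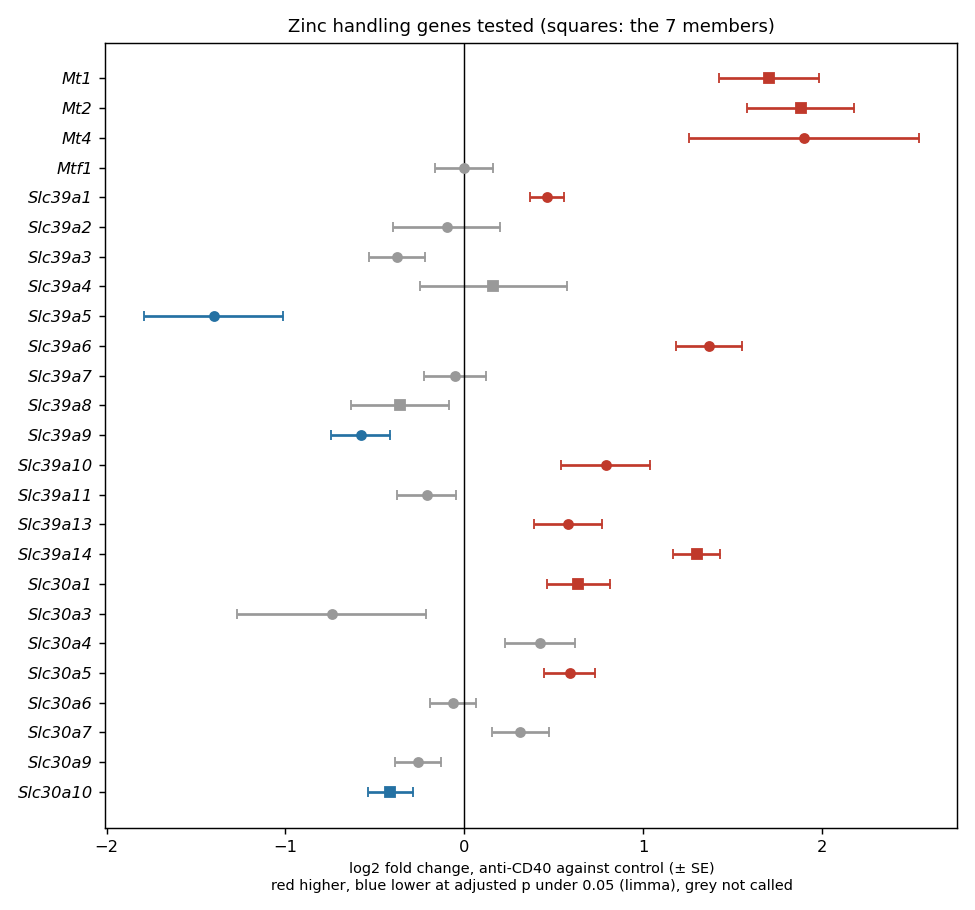
log2 difference between anti-CD40 and control mice (limma, bars ± SE) for the 7 genes and the other zinc genes tested, coloured by whether the adjusted p was under 0.05. Mt4, Mt2, Mt1, Slc39a6 and Slc39a14 lie farthest to the right, and Slc39a5 farthest to the left with a difference of -1.40.

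Because ZIP14, ZIP8 and the product of Slc30a10 carry manganese or iron as well, 14 genes of copper, manganese and shared iron transport were read beside them. Of 13 tested, 6 were higher, 4 lower and 3 did not pass, with a median log2 difference of 0.13, and the groups did not overlap in 8. Over all genes tested, 23.5% were higher, 21.7% lower and 42.4% without overlap. Cp, which encodes ceruloplasmin, the copper ferroxidase of plasma, rose from 132 ± 43.5 (SD, n = 6) to 508 ± 91.6 (SD, n = 3) FPKM, a log2 difference of 2.00 (limma adjusted p = 2.59e-04). Its locus is shared with Hps3 in the table.

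Transporters of iron and manganese were found in both directions. Slc11a2, which encodes DMT1, a divalent metal importer, went from a mean of 8.97 to 18.7 FPKM, a log2 difference of 1.07 (limma adjusted p = 2.51e-04). Slc11a1, the transporter of phagosomes in macrophages and neutrophils, was at 1.54 (limma adjusted p = 0.00295), in mice whose neutrophil and monocyte markers were also higher. Tmem165, a Golgi protein linked to manganese, was at 1.0 (limma adjusted p = 0.00729), and its locus is shared with Clock and other genes. In the opposite direction, Slc40a1, which encodes ferroportin, the iron exporter, fell from 40.9 to 17.1 mean FPKM, a log2 difference of -1.24 (limma adjusted p = 6.27e-05). Ferroportin is also made by Kupffer cells, whose markers were lower.

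Of the copper genes, Ccs, which encodes the copper chaperone of superoxide dismutase, fell from 373 to 160 mean FPKM, a difference of -1.21 (limma adjusted p = 2.28e-05). Commd1, which takes part in copper export, was at -0.93 (limma adjusted p = 0.00179), with a locus shared with Zrsr1. Slc31a1, the high-affinity copper importer, was at -0.44 (limma adjusted p = 0.0203), and at -0.074 on the scale without the Saa genes (limma adjusted p = 0.631). Its call was lost in 4 of 20 alternatives, also after quantile normalization and without anti-CD40 mouse 2 or mouse 5. Atp7a, a copper pump, was at 0.70 (limma adjusted p = 0.00275) and Slc31a2 at 0.63 (limma adjusted p = 0.0386, lost in 6 of 20 alternatives). Atp7b, the copper pump of hepatocytes, was listed between 0.01 and 0.013 in all mice and was not tested.

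**Figure D5:**
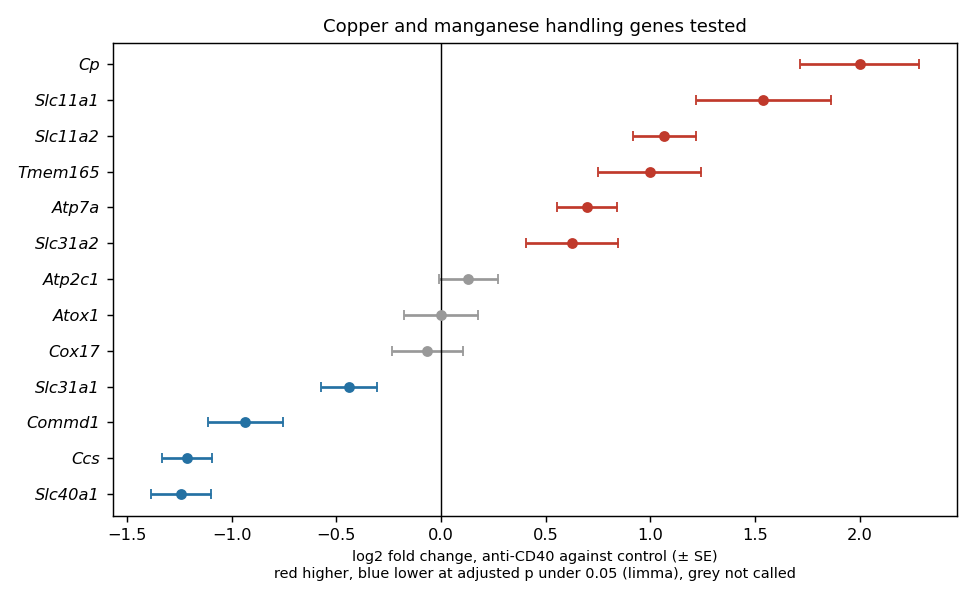
log2 difference between anti-CD40 and control mice (limma, bars ± SE) for the copper, manganese and shared iron genes tested, coloured by whether the adjusted p was under 0.05. Cp is farthest to the right at 2.00, and Slc40a1 and Ccs are farthest to the left at -1.24 and -1.21.

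The genes whose levels ran most like those of 4 of the 7 genes over all 9 mice were picked by Pearson's r, as a description. For Mt1 these were Galnt9 (r = 0.985), Ttll4 (0.977) and Ap2b1 (0.977). For Slc39a14 they were Esam (0.993), Coro2a (0.990) and Mcm2 (0.989). For Slc39a4 they were Mfsd2a (0.988), Scamp3 (0.977) and Ttc7 (0.973), none of which passed the test between groups. For Slc30a10 they were E2f6 (0.961), Rbbp4 (0.958) and Tpt1 (0.956). Both groups enter these values, so r holds the difference between groups as well as the spread within them.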

How the data were processed

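Liver RNA of 9 mice was made into QuantSeq 3′ libraries by the authors, aligned to mm10 with STAR and quantified with Cufflinks and Cuffdiff. The deposited values are FPKM per gene, with a floor of 0.01. The annotation and any filter are not given in the sources used here. FPKM divides by transcript length although 3′ libraries give about 1 tag a transcript, so levels were compared between groups and not ranked between genes. Read totals are not in the table. Low values gave a relative depth of 0.870 to 1.13, and 61.5% of 2537 low genes came out as whole reads within 0.05.

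Genes with a failed estimate (15) were left out. Groups came from the sample labels. Values were taken as log2(FPKM + 0.1), and the 13807 genes averaging 0.1 FPKM or more were fitted with limma 3.58.1 (R 4.3.3, trended eBayes, Benjamini-Hochberg, threshold 0.05). Exact 2-sided permutation tests used scipy 1.17.1. Cuffdiff, used by the authors, needs alignments. The scripts were tested on simulated data. Named genes were the 7 genes, every listed zinc, copper or manganese gene that passed or was not tested, and the 3 genes most like each of 4 members. Mtf1 is named outside this rule and was chosen after its values were seen. Markers were named only as the highest or lowest of a list. The members and lists were chosen with earlier results of these data known. The mice are taken as separate animals from their numbers. The alternatives were other pseudocounts (1 and 0.01), no filter or a mean of at least 1, 3 other scalings, 3 other fits, each mouse left out, and, added after seeing the data, control mouse 4 and anti-CD40 mouse 5 left out together.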

Additional observations from a re-analysis of the deposited data

Results flagged for a closer look

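In the control group, 1 mouse stood apart from the other 5 for 2 of the genes described. Mt2 in control mouse 12 was at 7293 FPKM with the next mouse at 4189, a gap of 0.652 of the whole range. Slc39a10 in control mouse 4 was at 0.947 FPKM with the next at 0.578, a gap of 0.683. The limit for 6 mice is 0.625. For normally distributed values chance passes it in about 1 in 20 groups, or 1.4 of the 28 groups examined. Gaps of genes were taken on FPKM, not on the log2 scale of the tests, and only those of ratios on log2 values. On the log2 scale Mt2 in control mouse 12 was at 0.945 from the control mean. The next mouse was at 0.145 and the lowest at -0.583, a gap under the limit.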

How the results depend on the processing

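Mt1 (log2 difference 1.57 to 2.07), Mt2 (1.69 to 2.25) and Slc39a14 (1.19 to 1.66) kept their direction and passed the test in all 20 alternatives. Leaving out 1 mouse at a time gave 0.51 to 0.75 for Slc30a1, -0.47 to -0.38 for Slc30a10, and -0.12 to 0.34 for Slc39a4, which turned without control mouse 4 (-0.12) and without that mouse and anti-CD40 mouse 5 (-0.12). Without both mice Slc30a10 was at -0.34 and Slc30a1 at 0.83. With the Saa genes left out and each mouse rescaled, Slc39a8 was at 0.0019 and Slc30a10 at -0.052, and 5633 genes were higher and 1647 lower, where 3240 and 2990 were on the deposited scale. The share of calls that were higher was then 77.4%, against 52.0% on the deposited scale. Of the other zinc genes, 3 were higher with no filter, 3 after quantile normalization, 9 on the rescaled values, and 3 to 7 with 1 mouse left out. Over all genes, 3143 of 24326, 2990 of 13807 and 5633 of 13852 were higher in the first 3 of these settings. With 1 mouse left out, 2482 to 3560 were. All 22 listed zinc genes were fitted with no filter, against 18 in the main fit. There was 1 zinc gene lower with no filter, 1 with a mean FPKM of at least 1, 1 on the rescaled values, and 0 to 2 with 1 mouse left out. Over all genes, 2535, 2703 and 1647 were lower in the first 3 of these, and 2332 to 3270 with 1 mouse left out. The ratio of Slc39a14 to Slc39a8 ran from 1.54 to 1.82 and that of Slc39a14 to Slc30a10 from 1.66 to 1.79 with 1 mouse left out. The ratio of Mt2 to Mt1 (0.18) passed in no alternative and ran from 0.079 without control mouse 8 to 0.27 without control mouse 12 (exact permutation p = 0.107). Without an anti-CD40 mouse the exact permutation p of both Slc39a14 ratios was 0.0714, because fewer mice allow fewer splits. Apart from those ratios and the rescaling, the cause of these changes was not tested. No paired analysis was possible because the groups share no mouse numbers. Depth per mouse is known only relative to the others.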
